A study of Mus musculus with 8 samples.

Results

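Smooth muscle and pericyte genes were followed between the limbus and the cornea of the mouse eye. The 10 genes were fixed by name, with no measured value in the rule but with earlier results of these data known, out of 23420 named genes in the deposited table, and all 10 had reads. They form 2 groups of 5. The contractile group holds Acta2, Myh11, Tagln, Cnn1 and Lmod1, and the pericyte or mural group holds Rgs5, Pdgfrb, Cspg4, Mcam and Notch3. Both tissues came from untreated wild-type C57BL/6J mice aged 8 weeks. The limbal rim, the ring that joins the cornea to the sclera, was cut from the corneal button inside it, and the tissue of 16 eyeballs was pooled by tissue before total RNA was sequenced. The labels list 4 numbered samples per tissue, but the table compares the tissues and was built from 1 cornea library and 1 limbus library. The reads of each library were worked back from the deposited means, to 26104317 reads on named genes for the cornea and 21182025 for the limbus, and are derived values. With 1 library per tissue there was no replicate check and no test, and every interval given is an exact 95% interval that covers counting error only.

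Smooth muscle cells and pericytes are the mural cells of blood vessels, lying outside the endothelium. Smooth muscle cells wrap arterioles and larger vessels and contract through smooth muscle actin and myosin, whereas pericytes sit on capillaries, stay attached through platelet-derived growth factor (PDGF) receptor beta and steady the vessel wall. The healthy cornea has no blood vessels, and the limbus carries the vessel arcades that border it. Smooth muscle genes also serve in contractile cells outside vessels, such as those of the ciliary body and iris, and in myofibroblasts.

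Many contractile genes carry a CArG box near their start, the DNA motif bound by serum response factor (SRF) together with myocardin. Promoter sequences from the RefSeq table of GRCm38.p6 were matched for 7 of the 10 genes, each running from 250 bases before the start of the gene to 50 bases after it, by the start that RefSeq gives. That start is 34255373 for Acta2 and 32166890 for Notch3, 217 and 38 bases from the starts in the GENCODE annotation, whose gene positions are given further on. Myh11, Tagln and Pdgfrb had no entry. Acta2 is shown because it was the 1 gene of the 7 with CArG-like boxes in this window, which are in capitals. Notch3 is shown beside it as the member with the opposite direction in the reads, and it has no capitals because no box was found.
Acta2 promoter, chr19:34255324-34255623, minus strand: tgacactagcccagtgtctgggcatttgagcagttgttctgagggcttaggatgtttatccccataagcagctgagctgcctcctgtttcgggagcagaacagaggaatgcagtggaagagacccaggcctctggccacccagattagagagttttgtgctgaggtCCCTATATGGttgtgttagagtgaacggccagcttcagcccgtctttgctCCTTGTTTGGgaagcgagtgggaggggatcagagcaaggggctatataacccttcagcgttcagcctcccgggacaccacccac
Notch3 promoter, chr17:32166841-32167140, minus strand: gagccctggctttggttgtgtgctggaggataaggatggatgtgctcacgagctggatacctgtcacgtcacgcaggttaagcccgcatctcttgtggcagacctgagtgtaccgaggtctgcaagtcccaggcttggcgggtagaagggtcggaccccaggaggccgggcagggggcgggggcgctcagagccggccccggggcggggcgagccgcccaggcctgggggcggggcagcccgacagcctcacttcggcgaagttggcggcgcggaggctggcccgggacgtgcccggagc
The Acta2 boxes, CCCTATATGG at -84 to -75 and CCTTGTTTGG at -34 to -25 from the RefSeq start, each have 1 letter other than A or T in the inner run, and each also reads as a box on the opposite strand. Of the 7 members searched, 0 had an exact box, against 535 of all 32851 promoters of the same length (1.63%). With 1 other letter allowed, 1 of 7 members and 9.98% of all promoters had a box. A match is a description of these letters and not a measured binding site.

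Of the 10 genes, 8 were at least 2-fold higher in the limbus and 0 were in the cornea. Over the 15572 genes with more than 3 reads in a library, the shares were 16.5% and 8.12%. The median log2 ratio of limbus over cornea was 3.66 for the 10 genes, a 12.7-fold difference, beside 0.01 for all genes tested. The intervals of 9 genes lay above 0, which held for 34% of all genes tested, and that of 1 gene, Notch3, lay below 0, as for 36.5%. At least 4-fold higher in the limbus were 6 of the 10 genes and 8.65% of all genes tested. A gene counted as 2-fold higher where its ratio reached 2 with more than 3 reads in both libraries. With 3 reads or fewer in a library these were set to 3 and the lower end of the interval had to reach 2. In bulk tissue, fewer cells of a type and less RNA per cell cannot be told apart.

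**Figure D1:**
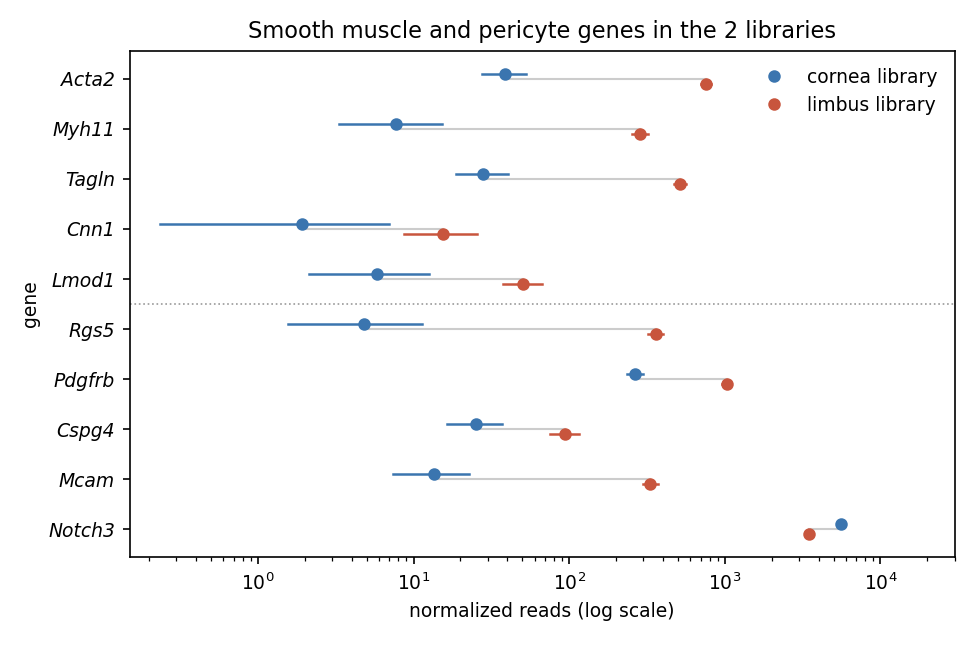
Reads divided by the size factor of the library, on a log axis, for the 10 genes in the cornea library (blue) and the limbus library (red), with contractile genes above the dotted line and pericyte or mural genes below it. Bars are exact 95% intervals of counting error; the limbus lies to the right for 9 genes, from Cnn1 with 2 and 15 reads to Pdgfrb with 274 and 995, and to the left for Notch3.

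Together the contractile genes had 85 corneal and 1569 limbal reads, 19.7-fold higher after division by the size factors. Acta2, smooth muscle alpha-actin, had 40 corneal and 730 limbal reads. After normalization these were 38.7 and 755 reads, a log2 ratio of 4.29 (3.83 to 4.78), or 19.5-fold. The 2 libraries stood far apart, and 98.2% of all genes tested had a lower ratio. Acta2 lies on the minus strand of chromosome 19, from 34241090 to 34255590 of GRCm38. Myh11, the heavy chain of smooth muscle myosin and a marker of mature smooth muscle, lies on chromosome 16 from 14194535 to 14291372 on the minus strand. It had 8 corneal and 277 limbal reads, with a log2 ratio of 5.21 (4.21 to 6.44), or 37.0-fold. This was the highest ratio in the contractile group, although its interval overlapped that of Acta2.

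Tagln encodes transgelin (SM22), an actin-binding protein of early and mature smooth muscle, on the minus strand of chromosome 9 from 45929619 to 45936058. Its 29 corneal and 498 limbal reads gave a log2 ratio of 4.20 (3.66 to 4.79), or 18.4-fold, close to that of Acta2. Tagln overlaps the protein-coding gene Pcsk7 on the opposite strand, and the use of strand in the counting is not given in the sources used here. Lmod1, Mcam and Notch3 overlap non-coding genes on the opposite strand, with the same limit. Lmod1, leiomodin 1, nucleates actin filaments in smooth muscle and lies on chromosome 1 from 135324807 to 135368065. Its reads were 6 and 49, with a log2 ratio of 3.13 (1.90 to 4.64), or 8.73-fold. Cnn1, calponin 1, binds actin and slows the myosin ATPase, and lies on chromosome 9 from 22099216 to 22109630. It had the fewest reads of the 10 genes, 2 corneal and 15 limbal. The ratio was 8.01-fold with an interval of 1.86 to 72.2, so Cnn1 was higher in the limbus beyond counting error but did not count as 2-fold higher.

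The pericyte and mural genes differed more among themselves, from a log2 ratio of -0.69 to one of 6.22. Rgs5, a regulator of G protein signaling and a widely used pericyte marker, had 5 corneal and 348 limbal reads, a log2 ratio of 6.22 (4.98 to 7.85), or 74.4-fold. It had the highest ratio of the 10 genes, above 99.6% of all genes tested, and lies on chromosome 1 from 169655501 to 169695813. Mcam (CD146), an adhesion molecule of pericytes, smooth muscle and endothelium, had 14 and 322 reads. Its log2 ratio was 4.62 (3.85 to 5.51), or 24.6-fold, and it lies on chromosome 9 from 44134469 to 44142727.

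Pdgfrb, the PDGF receptor beta through which pericytes are recruited to vessels and which fibroblasts also make, lies on chromosome 18 from 61045150 to 61085061. It had 274 corneal and 995 limbal reads, with a log2 ratio of 1.96 (1.76 to 2.15), or 3.88-fold. Cspg4 (NG2), a proteoglycan of the pericyte surface, lies on chromosome 9 from 56865033 to 56899870. Its 26 and 91 reads gave a log2 ratio of 1.90 (1.26 to 2.59), or 3.74-fold. The ratios of Pdgfrb and Cspg4 overlapped each other, and both intervals lay below that of Rgs5.

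Notch3, the Notch receptor of vascular smooth muscle and pericytes, which stratified epithelia also make, went the other way. It had 5755 corneal and 3349 limbal reads. The log2 ratio was -0.69 (-0.75 to -0.62), 1.61-fold higher in the cornea and short of a 2-fold difference. With the libraries scaled to total reads the ratio was -0.48, in the same direction. Notch3 lies on the minus strand of chromosome 17 from 32120820 to 32166852, and its row in the table carries no accession. Of the summed reads of all 10 genes it held 93.4% (cornea) and 50.2% (limbus). The sum of the mural group came to 6074 corneal and 5105 limbal reads. Without Notch3 this group had 319 and 1756 reads, 5.88-fold higher in the limbus, and the 9 remaining genes had 404 and 3325 reads, 8.80-fold higher. The 6 corneal epithelial markers had 2425450 corneal and 995513 limbal reads (summed level 0.44-fold), and none was at 0. Of these markers, 2 were at least 2-fold higher in the cornea and 1 in the limbus, beside 8.12% and 16.5% of all genes tested. The 1 in the limbus was Krt14, a keratin of basal epithelial cells, with 9952 corneal and 53574 limbal reads, 5.75-fold higher. Their part in the Notch3 values was not tested.

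**Figure D2:**
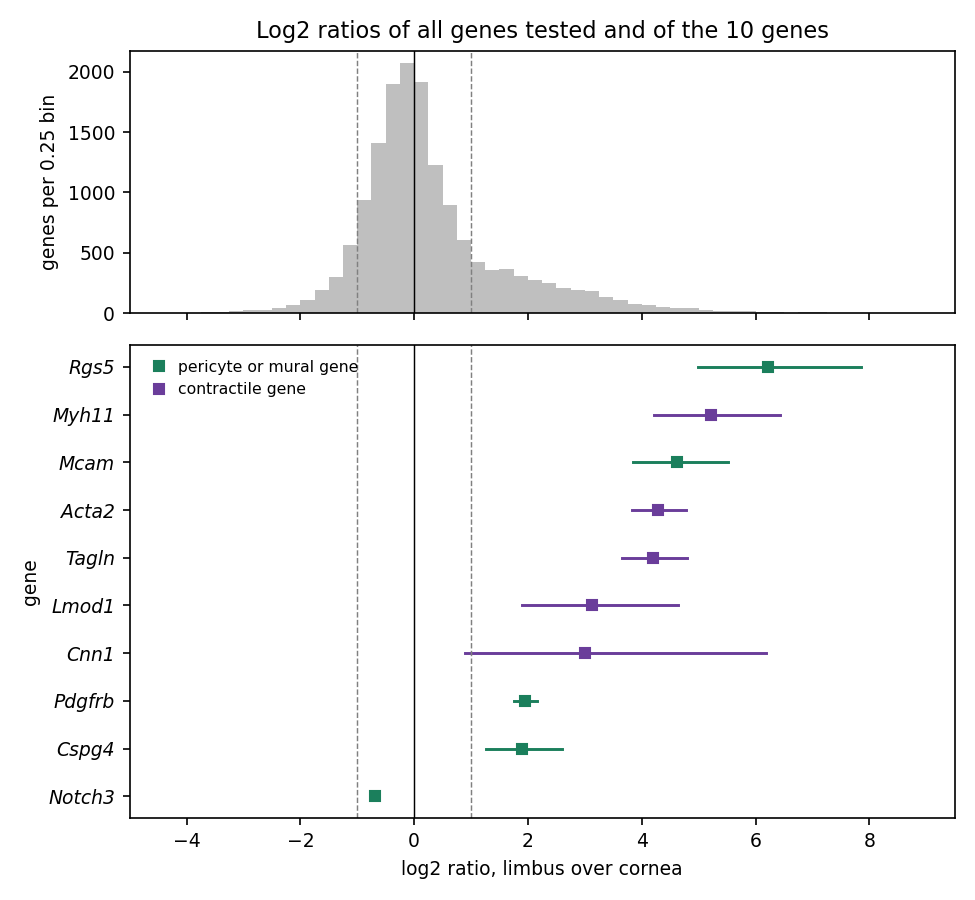
Top, log2 ratio of limbus over cornea for the genes tested in bins of 0.25; bottom, the same ratio for the 10 genes with exact 95% intervals of counting error, in purple for contractile and green for pericyte or mural genes. Dashed lines mark a 2-fold difference either way; Rgs5 is farthest right at 6.22, the contractile genes lie at or below 5.21, and Notch3 is the member left of 0.

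In descending order of ratio the genes were Rgs5, Myh11, Mcam, Acta2, Tagln, Lmod1, Cnn1, Pdgfrb, Cspg4 and Notch3. Of the 9 neighboring pairs in this order, 8 had overlapping intervals, and the step from Cspg4 to Notch3 did not. Levels were compared between genes as reads per kilobase of exon, scaled to the depth of the library (RPKM). In the limbus, Notch3 was highest at 19.5 RPKM, followed by Acta2 at 15.7, Tagln at 11.8, Pdgfrb at 8.57, Mcam at 4.54, Rgs5 at 3.61 and Myh11 at 1.72 RPKM. Lmod1 at 0.586, Cspg4 at 0.360 and Cnn1 at 0.259 RPKM closed the order. Counting error separated each of the first 7 from the next, whereas the intervals of Lmod1 and Cspg4, and of Cspg4 and Cnn1, overlapped. In the cornea the level of Notch3 was 27.3 RPKM and that of Pdgfrb 1.92, and the other 8 genes had levels between 0.0280 RPKM for Cnn1 and 0.698 RPKM for Acta2. The intervals of Acta2 and Tagln overlapped in the cornea, as did those of neighbors from Mcam downwards. Acta2 and Tagln thus stood behind Notch3 in the limbus and behind Pdgfrb as well in the cornea.

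Smooth muscle isoforms were set beside the related genes that most cells use. Acta2 made up 0.0698% of the summed RPKM of the actin family in the cornea and 1.06% in the limbus, where cytoplasmic Actb and Actg1 had levels of 874 and 539 RPKM. The actins are related genes, and how reads matching more than 1 of them were counted is not given in the sources used here. The skeletal muscle actin Acta1 had 10 corneal and 1564 limbal reads and a limbal level of 48.1 RPKM, above that of Acta2, and the enteric smooth muscle actin Actg2 had 2 and 18. Myh11 made up 0.0399% of its myosin family in the cornea and 1.55% in the limbus, while the non-muscle heavy chain Myh9 had levels of 27.7 and 30.6 RPKM. Tagln took 0.863% of the transgelin family in the cornea and 11.3% in the limbus, beside 64.1 and 92.3 RPKM of its paralog Tagln2. For Cnn1 the shares of the calponin family were 0.0264% and 0.216%, and Cnn3 had levels of 77.9 and 71.6 RPKM. The leiomodins of striated muscle, Lmod2 and Lmod3, had 0 corneal reads, and 5 and 3 limbal ones. At least 2-fold higher in the limbus were 2 of 5 actins tested, 1 of 4 myosins, 2 of 3 transgelins, 0 of 3 calponins and 1 of 2 leiomodins. These counts repeat Acta2, Myh11, Tagln and Lmod1, already given above, and add only Acta1 and Tagln3. Over all genes tested the share was 16.5%.

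**Figure D3:**
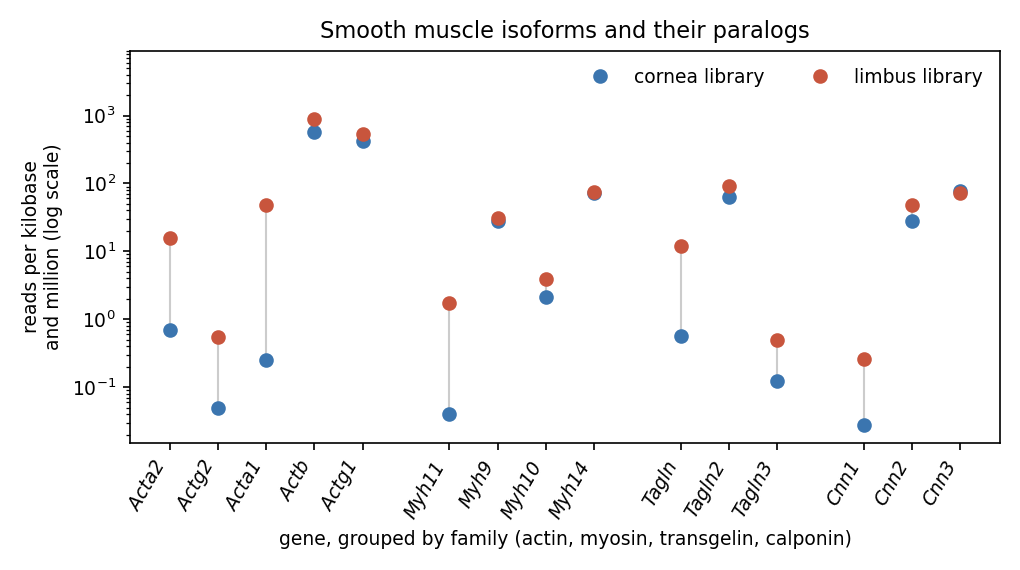
Reads per kilobase of exon scaled to library depth (RPKM), on a log axis, of Acta2, Myh11, Tagln and Cnn1 and of their paralogs in the cornea library (blue) and the limbus library (red). Each smooth muscle isoform is below the widely used members of its family, and Acta2 goes from 0.698 to 15.7 while Actb goes from 578 to 874.

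Among 20 further contractile genes, 11 of the 19 tested reached 2-fold towards the limbus and 0 towards the cornea. Of all genes tested, 16.5% and 8.12% did so. The median log2 ratio of the 19 was 1.96 with reads of 3 or fewer set to 3. It was 1.35 with genes of 3 or fewer reads at their bound. The 6 with the most reads did not move alike. Tpm2, a beta-tropomyosin shared with skeletal muscle, had 5906 corneal and 5205 limbal reads, a log2 ratio of -0.09. Tpm1, alpha-tropomyosin, had 372 and 4173 reads, 12.0-fold higher in the limbus. Skeletal muscle genes, given further on, were higher there too, and their part in the Tpm1 value was not tested. Myl9, the regulatory light chain of smooth muscle myosin, had 50 and 655 reads, with a log2 ratio of 3.81. Csrp1, a LIM protein of smooth muscle, was 2.55-fold and caldesmon (Cald1) 2.04-fold higher. Mylk, the kinase of the myosin light chain, had 920 and 1306 reads, 1.52-fold. Des, the intermediate filament desmin of all muscle types, was picked out after its values were seen: it had 0 corneal and 305 limbal reads, at least 36.8-fold higher.

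Of 18 further pericyte genes, 14 reached 2-fold towards the limbus and 0 towards the cornea, beside 16.5% and 8.12% of all genes tested. The median log2 ratio of the 18 was 3.39, and 2.41 with genes of 3 or fewer reads at their bound. Anpep (CD13), an aminopeptidase of pericytes and fibroblasts, had 263 corneal and 2625 limbal reads, 10.7-fold. Steap4, a metalloreductase, had 720 and 1539 reads, 2.28-fold, and the mitochondrial protein gene Ndufa4l2 had 45 and 89, 2.11-fold. The potassium channel of pericytes is built from Kcnj8 and its partner Abcc9. Kcnj8 had 3 corneal and 102 limbal reads, a ratio of 36.3 whose interval began at 12.1. Abcc9 had 7 and 172 reads, 26.3-fold. Vtn, vitronectin, had 3 and 112 reads, a ratio of 39.9 whose interval began at 13.3. These are the 6 of the list with the most reads, and the limbus was higher for each.

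Regulators of contractile genes that could be tested had log2 ratios between -1.27, for the repressor Klf4, and 0.70. These lay below the ratios of the contractile group, and Myocd and Gata6 had no ratio to compare. Srf had 1004 corneal and 986 limbal reads, a log2 ratio of 0.07 (-0.06 to 0.20). Myocd, the smooth muscle coactivator of SRF, had 0 and 1 reads, too few for a fold, and Gata6 was listed at 0. The related coactivators Mkl1 and Mkl2 had log2 ratios of 0.70 and -0.04, and the SRF partner Elk1 one of 0.09. Klf4, which represses contractile genes in smooth muscle and is abundant in epithelium, had 26458 corneal and 10248 limbal reads, a log2 ratio of -1.27. Of the 5 genes tested in this list, 0 were at least 2-fold higher in the limbus and 1, Klf4, in the cornea. The shares of all genes tested were 16.5% and 8.12%.

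The ligands of the PDGF receptors were compared with Pdgfrb. Pdgfb, the ligand that endothelium supplies to pericytes, had 55 corneal and 211 limbal reads, a log2 ratio of 2.04 (1.60 to 2.49). Its interval overlapped that of Pdgfrb. Pdgfd, which also binds the beta receptor, had 7 and 32 reads with a log2 ratio of 2.29, Pdgfc had 11 and 154 with 3.90, and Pdgfa had 264 and 469 with 0.92. Pdgfra, the receptor of fibroblasts, went the other way from Pdgfrb with 475 and 325 reads, a log2 ratio of -0.45 (-0.66 to -0.25). In all, 3 of these 5 genes reached 2-fold towards the limbus and 0 towards the cornea, with a median of 2.04. For all genes tested the shares were 16.5% and 8.12%.

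Of 12 Notch pathway genes, 4 reached 2-fold towards the limbus and 0 towards the cornea, beside 16.5% and 8.12% of all genes tested. The median log2 ratio of the 12 was 0.28, and 0.24 with genes of 3 or fewer reads at their bound. Most of the genes with many reads had log2 ratios within 0.31 of even, Jag1 being the exception. The receptors Notch1 and Notch2 had log2 ratios of 0.31 and 0.24, the ligands Jag2 and Dll1 had 0.23 and -0.06, and the targets Hes1 and Nrarp had -0.20 and 0.20. Jag1, a ligand of NOTCH3 in vessels, had 3126 corneal and 1812 limbal reads, a log2 ratio of -0.69 (-0.78 to -0.61), overlapping that of Notch3. The 4 genes that were higher in the limbus had fewer reads. Notch4, an endothelial receptor, had 1 corneal and 66 limbal reads, a log2 ratio of 6.14 (3.61 to 11.47), and Dll4, an endothelial ligand, had 0 and 69, at least 8.07-fold higher. Heyl, a target gene of NOTCH3 in mural cells, had 6 and 74 reads, 13.2-fold, and Hey1 had 4 and 45, 12.0-fold. Hey2, another target of the pathway in vessels, had 0 corneal and 4 limbal reads. Notch3 and Heyl had ratios of opposite sign in the same pair of libraries.

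Receptors through which vessels are told to contract were mostly sparse. Ednra, the endothelin receptor of smooth muscle, had 34 corneal and 152 limbal reads, 4.78-fold, whereas Ednrb had 211 and 201, with a log2 ratio of 0.03. The muscarinic receptor Chrm3 had 5 and 79 reads, 16.9-fold, and the adrenergic receptor Adra1b had 5 and 51, 10.9-fold. Agtr1a, the angiotensin receptor, had 0 and 21 reads, at least 2.23-fold higher. Adra1a, Adra1d and Chrm2 had 0 corneal reads and 2, 8 and 1 limbal ones. Of the 6 tested, 4 reached 2-fold towards the limbus and 0 towards the cornea, beside 16.5% and 8.12% of all genes tested. The median log2 ratio of the 6 was 2.58, and 1.71 with genes of 3 or fewer reads at their bound.

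Markers of other cells in the dissected ring also differed between the libraries. Of 10 endothelial genes, 9 were at least 2-fold higher in the limbus, and their sum went from 258 reads to 4166, 17.3-fold. Kdr, which was not 2-fold higher, held 170 of these corneal reads, and the other 9 genes went from 88 reads to 3888, 47.2-fold. The contractile group had 0.329 (cornea) and 0.377 (limbus) reads per endothelial read, but 0.966 and 0.404 with Kdr left out. For Rgs5, Pdgfrb, Cspg4 and Mcam together, with Kdr kept, this ratio was 1.24 (cornea) and 0.422 (limbus), and without Pdgfrb it was 0.174 and 0.183. With Kdr left out, it was 3.625 (cornea) and 0.452 (limbus) with Pdgfrb in the sum, and 0.511 and 0.196 without Pdgfrb. The ratio to endothelium was thus higher in the cornea for each sum once Kdr was left out. With Kdr kept, it turned on whether Pdgfrb was in the sum. Leaving out the gene of a list with the most corneal reads was chosen after seeing the data. All 10 skeletal muscle genes were at least 2-fold higher in the limbus, from 107 reads in sum to 13216, which is 132-fold (230-fold without Mylpf). The contractile group had 0.794 (cornea) and 0.119 (limbus) reads per skeletal muscle read. All 5 trabecular meshwork genes were higher as well, from 807 reads to 8396, 11.1-fold (19.4-fold without Mgp). The part of these cells in the values of the 10 genes was not tested.

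Fibroblast genes were at least 2-fold higher in the limbus for 4 of 9, with 71554 and 116465 reads in sum (1.74-fold), and genes of activated fibroblasts for 2 of 7, with 8419 and 9108 reads (1.16-fold). Fn1 held 7969 of these corneal reads, and the other 6 genes went from 450 reads to 2783, 6.61-fold. Tnc, with 9 and 834 reads, was 99.0-fold and Postn, with 125 and 1567, was 13.4-fold higher in the limbus. Most of those 2783 limbal reads were of Tnc and Postn. Itga11, Fap, Fn1 and Cthrc1 were nearer to even, with log2 ratios of 0.63, 0.57, -0.24 and -0.29. Lrrc15 of the latter list had 0 reads in the cornea, and no marker of any cell list was at 0 in the limbus. Schwann cell genes were higher for 6 of 7 (sum 1.70-fold, or 8.67-fold without Mbp, which held 4334 of 4548 corneal reads), melanocyte genes for 5 of 8 (5.12-fold) and leukocyte genes for 4 of 5 (5.57-fold, or 3.18-fold without Cd74), and none of these genes was at least 2-fold higher in the cornea. The keratocyte list had 1 of 3 genes higher in each tissue, and its sum was 0.42-fold (5629 corneal and 5555 limbal reads without Kera). Krt12, the keratin of differentiated corneal epithelium, was present in both libraries with 1137735 and 233324 reads.

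**Figure D4:**
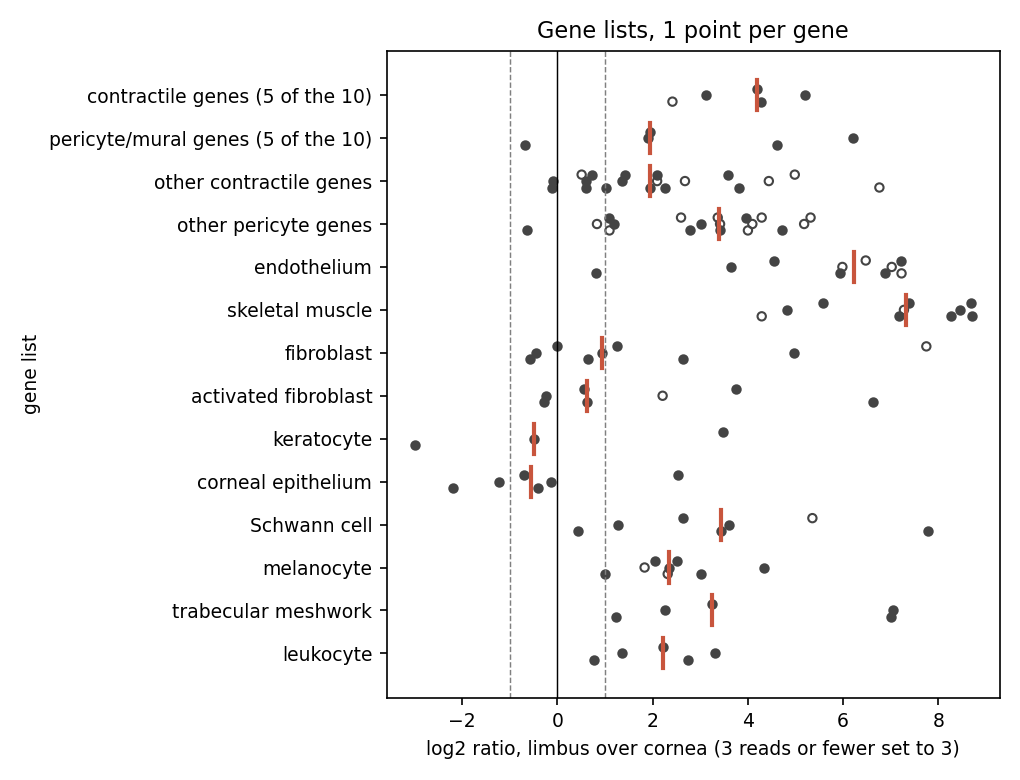
Log2 ratio of limbus over cornea for each gene of 14 lists, with libraries of 3 reads or fewer set to 3 (open points), the list median as a red bar and dashed lines at a 2-fold difference. Medians are 4.20 for the contractile group, 1.96 for the pericyte or mural group, 1.96 for other contractile genes and 3.39 for other pericyte genes. Endothelium lies at 6.23, skeletal muscle at 7.33 and corneal epithelium at -0.55.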

How the data were processed

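RNA of pooled limbal rims and corneal buttons was made into stranded libraries from 100 ng and sequenced. According to the methods of the study, reads were trimmed and mapped to GRCm38 (mm10) in CLC Genomics Workbench 20. Normalization there was by trimmed mean of M-values, whereas the ratios given here use the size factors of the deposited means. The counting tool, its use of strand and the annotation are not given in the sources used here. The authors deposited 1 table with a mean normalized signal per gene over both tissues. The authors also deposited a shrunken log2 fold change of cornea over limbus with its standard error, and p-values with adjusted p-values. These hold the authors' own comparison: the log2 columns served only to choose read pairs as below and to tell which library had the larger size factor, the p-values were not used, and none is printed.

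The table has 40904 rows, of which 17484 (42.7%) name no gene and were left out. Each mean of the 17442 named genes above 0 is the average of 2 libraries, 109 cornea reads being worth 102 limbus reads. Several pairs of read numbers gave the mean for 11299 genes. The pair was then taken whose ridge-fitted error, at the deposited ratio, came closest to the deposited error. Over all 17442 genes, including 6143 with 1 possible pair, the error was met within 0.001 for 17411 (99.8%). Reads are thus derived values. For 3 of the 10 genes 1 pair was possible. For the other 7 the miss was at most 3.79e-06, against 0.000757 or more for the next pair. On simulated data the reads of all 17048 genes were recovered. The simulated ratios and errors came from the same formula that was worked back, so this recovery was built in. Called were 100 of 100 genes made 4-fold different, 3 of 100 made 1.5-fold different and 156 (1.02%) of 15241 unchanged genes. The changed genes had means of at least 10. Simulated reads varied by counting noise alone, so these shares leave out differences between animals or dissections.

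Depth was 26104317 reads on named genes in the cornea and 21182025 in the limbus, with size factors of 1.03 and 0.967. The 4 numbered samples per tissue have no values in the table. Its means are averages of 1 library per tissue, as above, so no test was run. Intervals are Clopper-Pearson, from the limbal share of reads, and with 1 library per tissue they cover counting error only. PCR copies are not independent, so the intervals may be too narrow even for that error. A gene was called at a 2-fold ratio with more than 3 reads in both libraries. With 3 reads or fewer in a library, these were set to 3, the lower end of the interval had to reach 2, and "at least" gives that lower end for genes with 0 reads. RPKM used merged exons of GENCODE M21, which also gave positions.

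The 10 genes and 21 other lists were chosen with earlier results of these data known. Where a list is named in part, its genes with the most reads are given unless stated. Python 3.11.15, numpy 2.4.6, scipy 1.17.1 and pandas 2.3.3 were used. Alternatives covered scaling, low reads, the fold, the read pair and exon length.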

Additional observations from a re-analysis of the deposited data

How the results depend on the processing

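The number of the 10 genes at least 2-fold higher in the limbus was 8 under every scaling and with a floor of 10 reads. It was 9 with a pseudocount of 1 or a fold of 1.5, and 6 at a fold of 4. With a mean of at least 50 it was 7, Lmod1 and Cnn1 no longer being tested. The share of all genes tested was 16.5% to 19.2% under the scalings and 8.65% at a fold of 4. For the other settings this share was not computed. The floor of 10 reads lowered Rgs5 from 6.22 to 5.22 and Cnn1 from 2.42, its value at a floor of 3, to 0.68, and left 8 in place of 9 genes higher beyond counting error. Of 70 values of single genes under the alternatives, 65 stayed within their counting interval, 5 moved by more and 0 changed sign. Many of the 65 could not move. A filter on the mean leaves a ratio as it is, and the floor of 10 reads changes only genes with fewer reads in a library. Scaling to total reads moved all ratios by 0.21 towards the limbus and the share of genes at least 2-fold higher there from 16.5% to 19.2%, with 5.10% in the cornea. It gave 2.16 for Pdgfrb and -0.48 for Notch3. The next best pair of reads gave 2.17 for Acta2, 4.52 for Pdgfrb and -4.42 for Notch3, by its construction from other reads. With a mean of at least 50, the number of further contractile and pericyte genes called fell from 25 to 13, fewer genes being tested, and the median limbal level of the 10 genes was 4.55 RPKM over the longest transcript in place of 4.08. Leaving out Notch3, chosen after seeing the data, gave 8 of 9 genes and a median of 4.20. No paired analysis was possible because the deposited means carry no separate value for the numbered samples, and leaving out replicates was not run for the same reason. Depth limits Cnn1 most, with 2 and 15 reads.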
